A study of Marmota monax with 20 samples.

Results

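The genes described here varied strongly between the spleens of 5 woodchucks and little between their livers or between their kidneys. They are 150 of the 30973 genes of the woodchuck annotation. Counts were divided by a size factor per library, and the result is called N below. The spread V of a gene within a tissue was the highest N plus 50 over the lowest N plus 50. A gene was taken where its highest spleen N was at least 500, V was above 5 in spleen and V was at most 3 in liver and in kidney. Of 12091 genes with a spleen at 500 or more, 766 had a spleen V above 5, and 393 of these were left out for their spread in liver or kidney. The remaining 373 were ranked by spleen V and the first 150 were kept. The levels in spleen and the spread in all 3 tissues therefore chose the genes, and they are given as a description with no test.

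The woodchuck (Marmota monax) is a marmot that carries a virus related to human hepatitis B virus and serves as a model of that infection. The animals here were adults negative for woodchuck hepatitis virus, and the labels name no treatment. Poly(A) RNA was sequenced from spleen and kidney of 2 females (F6849 and F9150) and 3 males (M4046, M4075 and M4091), and from liver of these 5 animals and of the female F6852. Lung and heart came from F6849 and pancreas and thymus from F9150, each as 1 library with no replicate. Sex was read from the letter of the animal's name. The genome assembly used for mapping was made from F6849, and the part this may have in its counts was not tested.

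The spleen filters the blood. Its red pulp removes aged red cells and stores blood cells, its white pulp holds B and T lymphocytes around the arteries, and in rodents it can also form blood cells. In RNA from a whole piece of spleen, fewer cells of a type and less RNA per cell cannot be told apart. None of the 30973 identifiers was matched to a gene symbol in the RefSeq table used here. The genes are therefore given by identifier, their roles are not stated, and the spleen libraries were not checked against markers of their cell types.

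The total count per spleen library was 59487004 to 69512327 in 4 animals and 123267969 in F6849. Totals were 82874390 to 140252555 in liver and 63682684 to 107167963 in kidney. Each spleen was sequenced in a lane that held no other spleen, so that lane and spleen cannot be told apart. All libraries of a tissue were distinct, with a chi-square per degree of freedom of 121 or more for every pair. Of the 150 genes, 5 had 0 counts in at least 1 spleen and 13 had fewer than 10 counts in at least 1. The lowest count of any of them in its highest spleen was 612, and the median count in its lowest spleen was 79.5, so that the highest value rests on many reads and some lowest values on few.

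Spleen V of the 150 genes ran from 7.89 to 297 with a median of 11.6, against a median of 1.55 over the 12091 genes. At the end of the list, Monax4B028720 had a V of 7.91 and Monax4B019214 one of 7.89. The next genes, Monax4B005098 at 7.87 and Monax4B023352 at 7.84, were left out by the limit of 150 alone. At the threshold of 5, Monax4B018466 and Monax4B015092 were just inside at 5.01 each, and Monax4B044580 at 4.99 and Monax4B021069 at 4.98 were just outside.

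One animal led most of the list. The highest spleen was that of F6849 for 110 genes (73.3%), against 29.7% of the 12091 genes. Of the 766 genes with a spleen V above 5, whatever their spread in liver or kidney, it was so for 59.8%. Among the 150 it was that of M4091 for 17, of F9150 for 14, of M4075 for 5 and of M4046 for 4. The lowest spleen was that of M4091 for 77 genes (51.3%), against 23.5% of the 12091 genes. Of the 766 genes it was so for 51.2%, so this share was not particular to the 150. Among the 150 the lowest spleen was that of M4046 for 30, of F6849 for 18, of M4075 for 13 and of F9150 for 12. The median N of the 150 genes was 1260 in the spleen of F6849, 434 in F9150, 245 in M4046, 298 in M4075 and 140 in M4091. Together they took 0.977% of the counts of the spleen of F6849, 0.530% in F9150, 0.209% in M4046, 0.234% in M4075 and 0.168% in M4091.

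**Figure D1:**
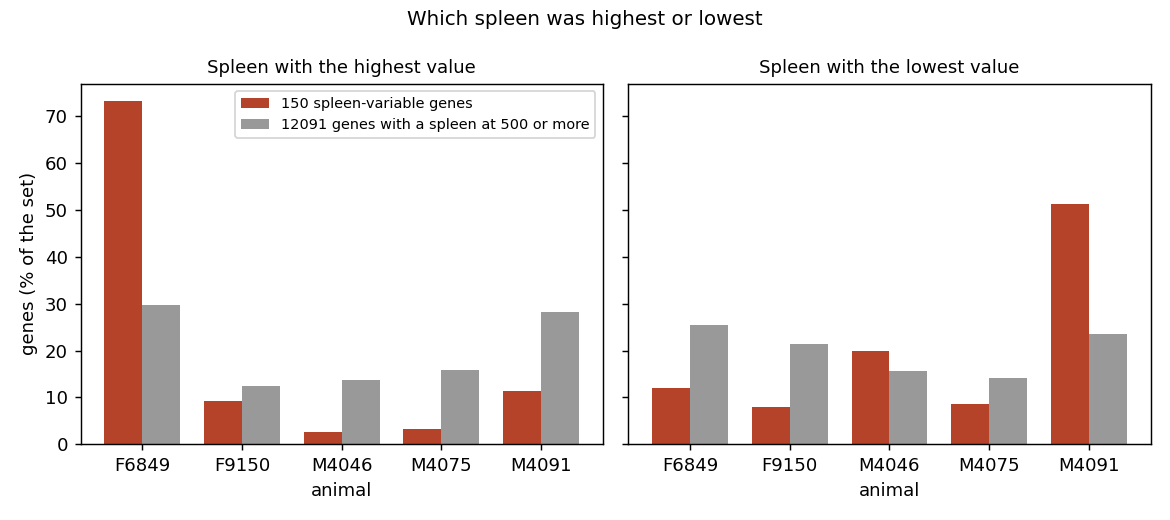
Bars give the percent of genes (vertical axis, starting at 0) whose highest value (left) or lowest value (right) was in the spleen of each animal (horizontal axis), for the 150 spleen-variable genes (red) and for the 12091 genes with a spleen at 500 or more (grey). F6849 was highest for 73.3% of the 150 genes against 29.7%, and M4091 lowest for 51.3% against 23.5%.

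The depth of the spleen library of F6849 was 1.77 to 2.07 times that of the others, and the rule was applied again with its counts drawn down at random to 59487004, the lowest total among the spleens. This gave 369 genes, the first 150 of them shared 147 with the list, and F6849 was highest for 110 of these first 150. Of all 373 genes that passed, it was highest for 257 (68.9%). With the spleen of F6849 left out, 118 genes passed, 67 of the 150 among them. With the spleen of M4091 left out, 185 passed, 113 of the 150 among them. Leaving out F9150, M4046 or M4075 kept 142 or 147 of the 150, as the plot of spleens left out shows. Leaving out a liver or a kidney cannot widen the spread there, so all 150 pass by construction. The first 150 genes chosen anew without 1 of these libraries shared 131 to 147 with the 150.

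**Figure D2:**
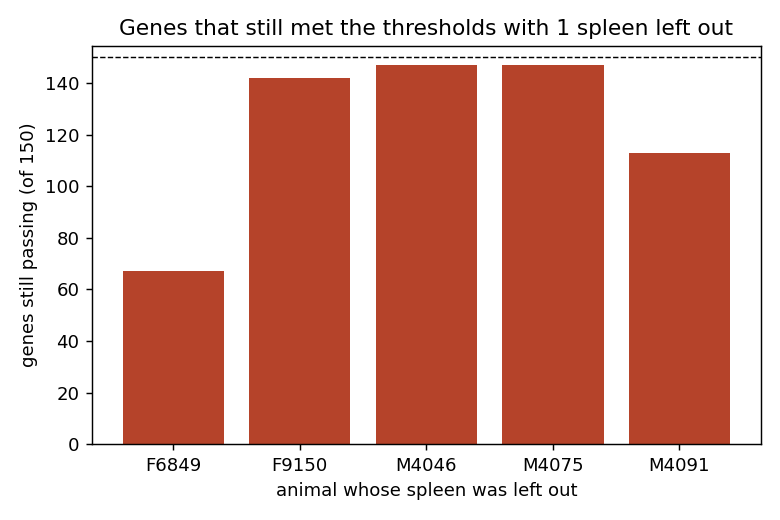
Bars give the number of the 150 genes (vertical axis, starting at 0; the dashed line is 150) that still met the thresholds with the spleen of 1 animal left out (horizontal axis). The number fell to 67 without the spleen of F6849 and to 113 without that of M4091, and was 142 or 147 without each of the others.

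To describe which spleens were high together, the 5 spleens were split at the geometric midpoint between the highest and the lowest N plus 50 of each gene. By this split 54 genes were high in 1 spleen, 55 in 2 spleens, 33 in 3 and 8 in 4. The most frequent set was F6849 alone, with 48 genes (6.93% of the 12091 genes had this set), followed by F6849 with F9150, with 41 genes (10.5% of the 12091). Of the 766 genes with a spleen V above 5, 20.9% and 23.4% had these sets. The 3 males alone were high for 10 genes (6.67%), less than the 11.7% of the 12091 genes. F6849 and F9150 with M4046 were high for 9 genes (6%, against 3.08%) and with M4075 for 9 (6%, against 5.06%). M4075 with M4091 were high for 7 (4.67%, against 7.02%). Every other set held 4 genes or fewer. The highest spleen was at least 3 times the next, with 50 added to each, for 59 genes (39.3%), against 1.55% of the 12091 genes and 22.8% of the 766. Of these 59, 53 were highest in F6849.

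**Figure D3:**
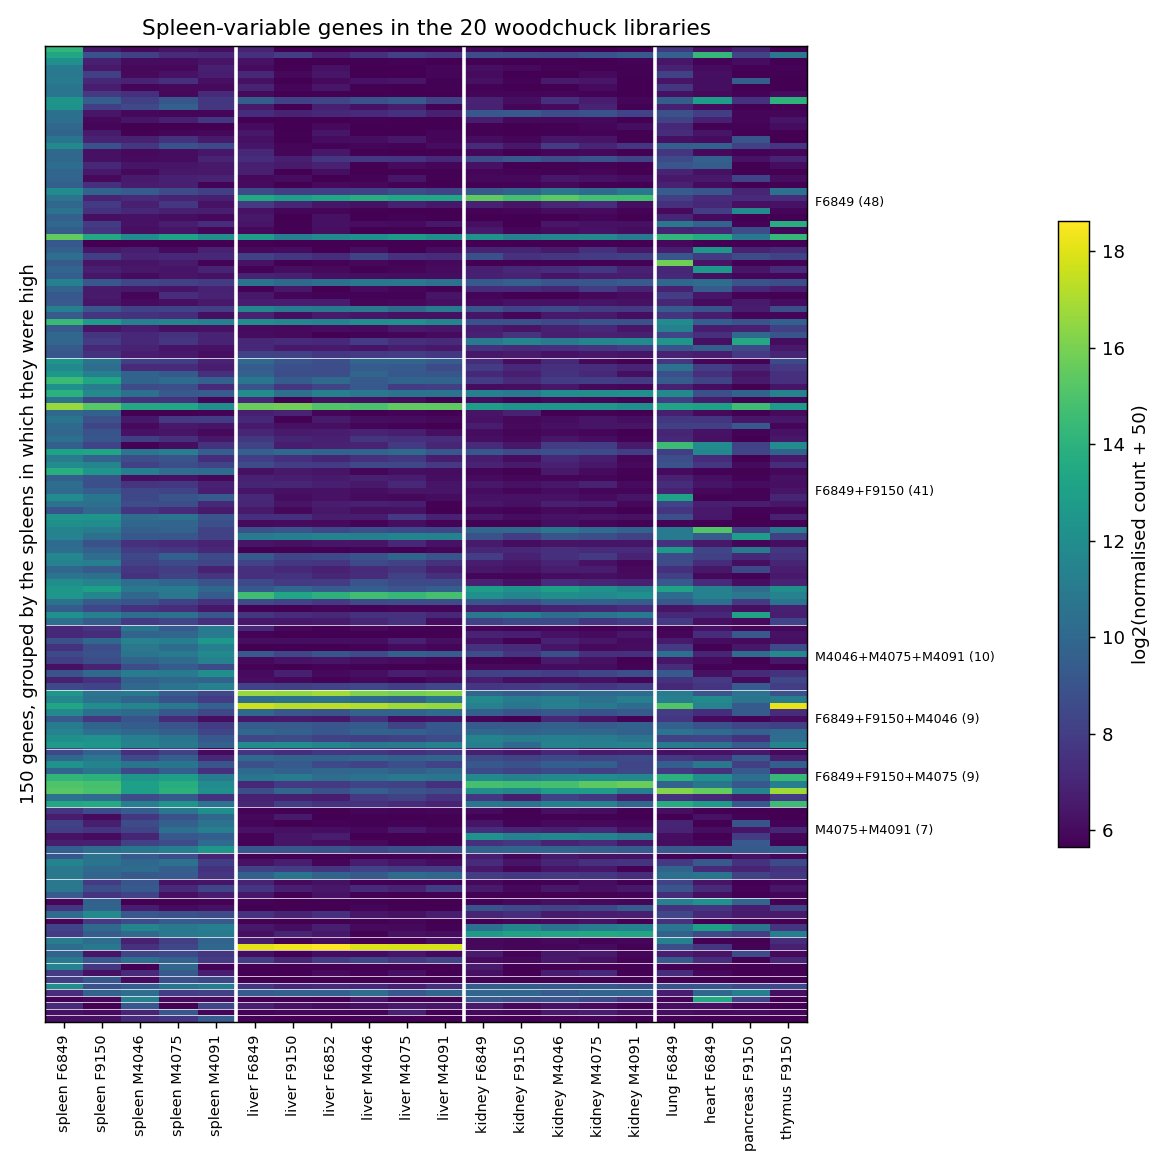
Each row is 1 of the 150 genes, grouped by the spleens in which it was high, and each column 1 of the 20 libraries, with colour giving log2 of the normalised count plus 50. The 48 rows at the top are bright in the spleen of F6849 and dark in the other spleens, the 41 rows under them are bright in the spleens of F6849 and F9150, and few rows change along the livers or along the kidneys.

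Among the 48 genes that were high in the spleen of F6849 alone, the median N was 1004 there, 78.2 in F9150, 48.0 in M4046, 43.4 in M4075 and 53.5 in M4091. With 50 added, the spleen of F6849 exceeded the median of the other 4 spleens 9.67 times for the median gene and 3.74 to 246 times over all 48. With 50 added to each, the second highest spleen was 1.89 times the lowest for the median gene. The split put the other 4 spleens of these genes under the midpoint, and the 50 added narrows ratios of low values. That ratio is therefore not read as a result. In the remaining organs their median N was 49.2 in the liver of F6849, 12.6 to 24.5 in the other 5 livers, 155 in lung and 53.4 in heart. Not all of them were low there: the upper quartile was 534 in lung and 621 in heart, and 17 of the 48 had every liver and every kidney under an N of 50.

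Monax4B015587 had the largest spread of all, a V of 297. Its N was 18572 in the spleen of F6849, 39.3 in F9150, 12.8 in M4046, 30.1 in M4075 and 21.0 in M4091. Outside spleen, F6849 also had the highest liver, at an N of 72.1, and the highest kidney, at 10.5. Lung, at 165, and heart, at 27.0, came from F6849 alone and so compare no animals. The pancreas of F9150 held 72.3. The other 5 livers were at 0 to 5.03 and the other 4 kidneys at 0 to 3.75. The only values above 100 were in the spleen and lung of F6849, and lung was sequenced from no other animal.

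Monax4B000384 was the next of this set. Its N was 10182 in the spleen of F6849, 426 in F9150, 226 in M4046, 95.6 in M4075 and 86.0 in M4091. Here the liver and kidney of F6849 did not stand apart, with N of 65.3 to 234 over the livers (median 150, F6849 at 122.5) and 321 to 584 over the kidneys (F6849 at 372). Heart, at 19834, was the only library above the spleen of F6849, and thymus held 1728.

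The 41 genes that were high in both female spleens were more abundant. Their median N was 2627 in F6849, 1286 in F9150, 296 in M4046, 328 in M4075 and 130 in M4091. The spleen of F6849 exceeded the median of the other 4 spleens 6.30 times for the median gene, and the highest spleen exceeded the next 1.97 times. Their median N in liver was 65.3 to 168, and in lung 225. Monax4B042491 belongs to this set and had the largest fitted difference between female and male spleens of the genes without overlap. Its N was 982 in F6849, 774 in F9150, 0 in M4046, 0 in M4075 and 3.82 in M4091, so that both females were far above every male.

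By N, that order was also seen for Monax4B042491 in liver and kidney, at far lower levels. In liver its N was 55.2 in F6849, 72.2 in F9150 and 6.12 in F6852, and 0 to 3.66 in the males. In kidney it was 31.6 in F6849 and 62.7 in F9150, and 0 to 2.23 in the males. No female and male overlapped in any of the 3 tissues. In liver, however, the lowest female, F6852, had 3 counts and the highest male, M4075, had 2. The order of these animals in liver is therefore not resolved. With 50 added, V was 2.44 in liver and 2.25 in kidney, under the limit of 3 that the rule sets.

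The 10 genes that were high in the 3 male spleens had a median N of 178 in F6849, 313 in F9150, 1260 in M4046, 1142 in M4075 and 2414 in M4091. The 7 genes that were high in M4075 and M4091 had a median N of 153 in F6849, 58.9 in F9150, 270 in M4046, 728 in M4075 and 1399 in M4091. M4091, the lowest spleen of 77 genes, was the highest in the median of both sets.

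**Figure D4:**
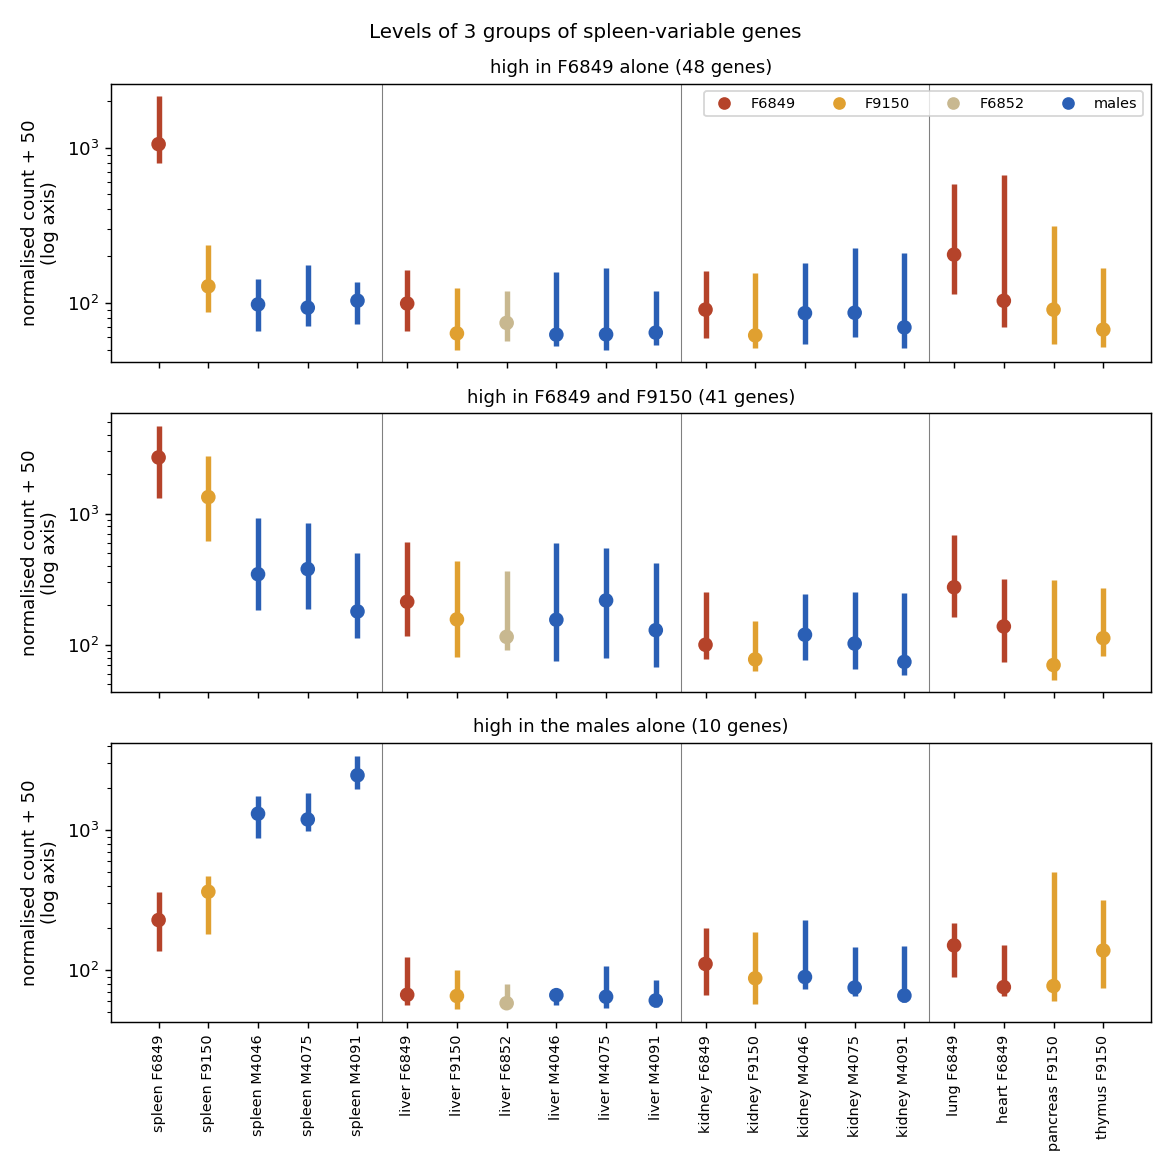
Points give the median and bars the range from the lower to the upper quartile over genes of N plus 50 (vertical axis, log scale) in each of the 20 libraries (horizontal axis), for the 48 genes high in the spleen of F6849 alone (top), the 41 high in F6849 and F9150 (middle) and the 10 high in the males (bottom). The top set stands at a median N of 1004 in the spleen of F6849 and at 43.4 to 78.2 in the other spleens, and the lung of F6849 is the highest library outside spleen.

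A single spleen other than that of F6849 was high for few genes. In F9150, Monax4B034886 had an N of 740, against 6.95 in F6849, 1.599 in M4046, 0 in M4075 and 3.82 in M4091. It was at 0 to 4.80 in the livers (median 0) and 4.68 to 21.8 in the kidneys, but at 4754 in heart, 2516 in lung and 881 in pancreas. Monax4B008382 had an N of 866 in the spleen of F9150, 141 in F6849, 51.2 in M4046, 15.9 in M4075 and 24.8 in M4091. All kidneys, at 252 to 620, lay between the highest and the second highest spleen.

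In M4046, Monax4B016757 had an N of 2455, against 3.97 in F6849, 9.82 in F9150, 14.2 in M4075 and 15.3 in M4091. The liver of M4046 was also the highest liver, at 30.2 against 0 to 3.62 in the other 5, while its kidney, at 502, lay within the 169 to 568 of the kidneys. Heart held 11784 of this gene.

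In M4075, Monax4B010797 had an N of 542, against 24.8 in F6849, 15.6 in F9150, 75.2 in M4046 and 9.56 in M4091. The other organs of M4075 were highest too: its liver was at 60.4 against 0 to 8.59 in the other 5, and its kidney at 51.9 against 5.64 to 42.0 in the other 4.

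In M4091, Monax4B018508 had an N of 625, against 22.8 in F6849, 26.2 in F9150, 102 in M4046 and 151 in M4075. It was nearly absent elsewhere, with 0 to 4.80 in liver (median 0), 0 to 7.82 in kidney, 2.20 in lung and 0 in heart, pancreas and thymus.

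Other genes were low in 1 spleen alone. In F6849, Monax4B020072 had an N of 5.95, against 177 in F9150, 352 in M4046, 639 in M4075 and 579 in M4091. Monax4B012726 had an N of 256 in F6849, against 1067 in F9150, 2978 in M4046, 1802 in M4075 and 2307 in M4091. Both were thus lower in F6849 than in each of the other spleens, and in Monax4B012726 both females were below the 3 males.

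Low in M4046 alone was Monax4B021305, with an N of 15.99 against 208 in F6849, 527 in F9150, 405 in M4075 and 300 in M4091. Outside spleen it had counts only in 2 kidneys, with N of 4.68 and 1.68, and 0 in the other libraries. Low in M4091 alone were Monax4B038910, with 66.9 against 370 to 1429 in the other spleens, and Monax4B014094, with 216 against 1001 to 2901. No gene of the 150 was low in F9150 alone or in M4075 alone.

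**Figure D5:**
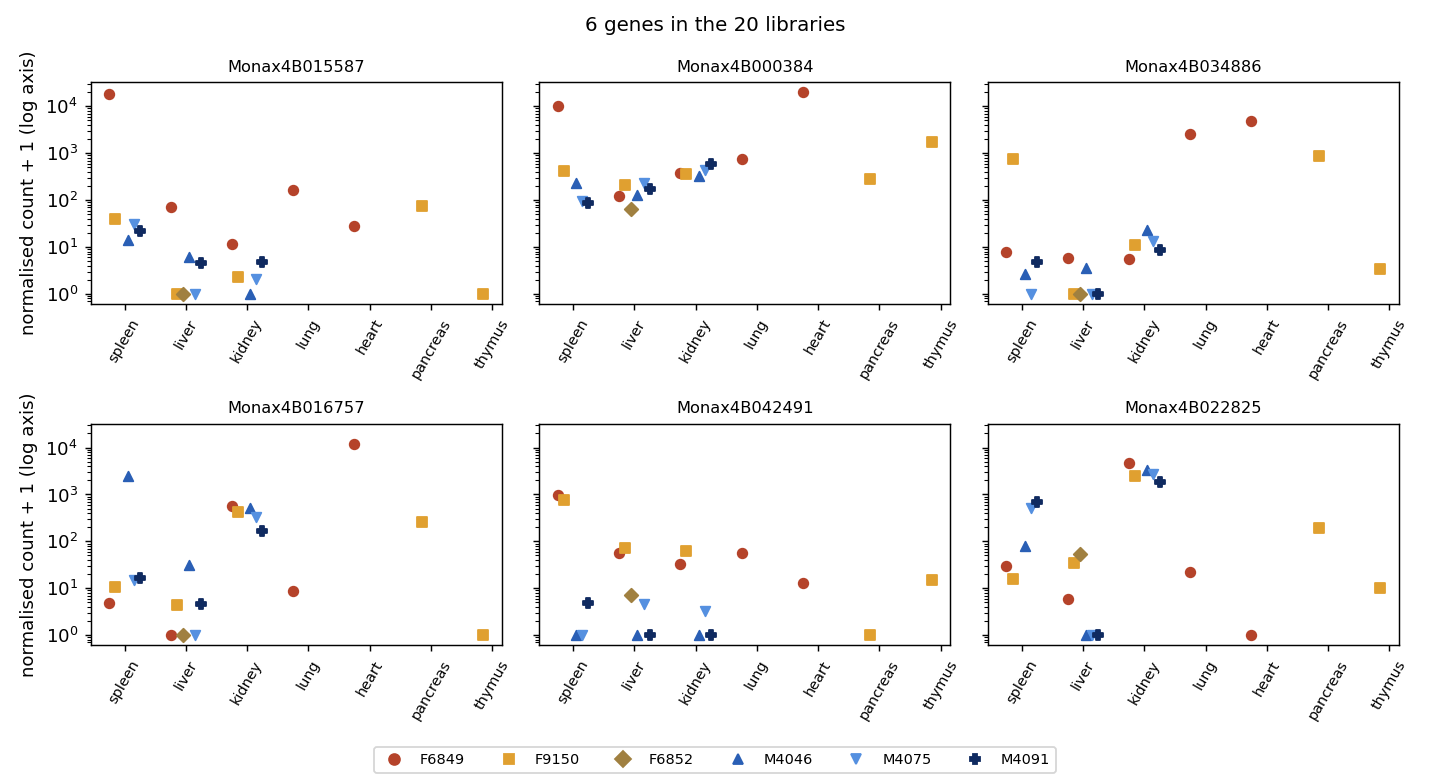
Points give N plus 1 (vertical axis, log scale) of 6 genes in each library by tissue (horizontal axis), with a colour and shape for each animal. Monax4B015587 stands at 18572 in the spleen of F6849, Monax4B034886 at 740 in that of F9150 and Monax4B016757 at 2455 in that of M4046, while both female spleens are above the male ones for Monax4B042491 and below them for Monax4B022825.

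The other organs of the animals were not used to order the spleens, and the order was compared between organs. The liver of F6849 was above the livers of the other 4 animals for 71 of the 150 genes (47.3%), against 19.9% of the 12091 genes. Among the 764 genes with a spleen V above 5 and a count in liver it was so for 32.7%. Among the 109 genes highest in the spleen of F6849 that had a count in liver it was so for 56 (51.4%), against 29.1% of the 3583 such genes among the 12091. Among the 48 genes that were high in that spleen alone it was so for 31 (64.6%). Of the 12091 genes, 838 were high in that spleen alone, but their share is not given here. The 64.6% is therefore not read as an excess. The liver of F6849 was on top for 44.2% of the 457 genes highest in that spleen with a spleen V above 5, whatever their spread in liver or kidney. It was also so for 15 of the 40 genes that were highest in another spleen (37.5%, against 16% of the 8506 such genes among the 12091), so the liver of F6849 was often high whichever spleen led. With 10 added, the liver of F6849 was 1.91 times the median of the other 4 for the median gene of the 48, and 0.996 times over the 12091 genes.

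Kidney showed this less often. The kidney of F6849 was above the other 4 for 45 of the 150 genes (30%), against 16.7% of the 12091 genes and 25.5% of the 765 with a spleen V above 5. The count was 31 of the 110 genes highest in the spleen of F6849 (28.2%), against 24% of such genes among the 12091. It was 31.9% of the 458 such genes with a spleen V above 5. For the 40 others it was 14 (35%), against 13.7% of such genes among the 12091 and 16% of the 307 with a spleen V above 5. The highest liver and the highest spleen belonged to 1 animal for 65 of 148 genes with a count in liver (43.9%), against 26.4% of the 12091 genes. The share was 41.9% of the 764 such genes with a spleen V above 5, near that of the 150. Among the 65 the animal was F6849 for 56, and it was M4091 for 0 of the 17 genes highest in its spleen. For kidney the number was 37 of 150 (24.7%), near the 27.4% of the 12091 genes, and 32.7% of the 765. The difference between liver and kidney was not tested.

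Lung, which was sequenced from F6849 alone, was above every liver and every kidney for 73 of the 150 genes (48.7%), against 20.5% of the 12091 genes. It was so for 60 of the 110 genes highest in the spleen of F6849 (54.5%, against 24.1% of such genes among the 12091) and for 13 of the other 40 (32.5%, against 19%). The highest library outside spleen was one of F6849 for 86 genes (57.3%), against 33.6% of the 12091 genes, and it was lung for 51 of them (10.4% of the 12091 genes). With 1 lung library, lung and animal cannot be told apart.

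Females and males were compared within spleen. Both females were above the 3 males for 93 genes (62%), against 21.3% of the 12091 genes, and the 3 males above both females for 22 (14.7%), against 24.1%. The median log2 fold change of females over males was 2.40 over the 147 of them left by the filter on low counts, and 0.01 over all 19735 genes tested. The rule chose genes with a wide spread over these 5 spleens, so that no test is read from these values. Without the spleen of F6849 the median was 1.21 over 148 genes, with 1 female left. The quasi-likelihood test of edgeR called 0 of the 147 genes at a false discovery rate of 0.05, and 0% of all genes tested. At an unadjusted p under 0.05 it had 122 of the 147, against 21% of all genes tested, and DESeq2 called 111, against 12.5%. The genes were chosen for their spread over these same spleens, so no excess is read from these counts.

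The rule used the spread within liver and within kidney but not the order of the sexes there. All females were above all males in liver for 20 of the 150 genes (13.3%), against 10.9% of the 12091 genes, and below them for 4 (2.67%), against 13.5%. In kidney the numbers were 11 (7.33%), against 12.6%, and 13 (8.67%), against 11.6%. Of the 93 genes with both female spleens on top, 13 had all females on top in liver (14%, against 13.4% of the 2571 such genes among the 12091). In kidney 5 had all females on top (5.38%, against 11.3%) and 10 all males (10.8%, against 15.4%).

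Among the genes with males on top, Monax4B016757 had the largest fitted difference, through the single spleen of M4046 given above. Monax4B022825 was the next, with an N of 28.8 in F6849, 14.7 in F9150, 76.8 in M4046, 524 in M4075 and 682 in M4091. In liver the order was the other way, with 4.80 to 53.0 in the 3 females and 0 in the 3 males. Kidney held far more, at 1809 to 4706, with females and males overlapping.

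The tissues were compared over the 16 libraries of liver, kidney and spleen in 1 fit. Of the 147 genes left by the filter, 121 were called between spleen and liver, against 74% of all genes tested. Of these, 114 were higher in spleen, against 39.5% of all genes tested, and 7 lower, against 34.5%, and the median log2 fold change was 3.33, where that of all genes tested was 0.14. This median was 2.03 without the spleen of F6849 and 2.43 with robust observation weights. Against kidney 110 were called, 106 higher in spleen and 4 lower, where 62.5%, 30.9% and 31.6% of all genes tested were, and the median was 3.44, where that of all genes tested was 0.01. The rule asked for at least 500 in 1 spleen and kept liver and kidney narrow, so these directions are a description. The spleen had the highest mean N of the 7 tissues for 88 genes (58.7%), against 26.1% of the 12091 genes, followed by pancreas and heart with 13 each, lung with 11, thymus with 10, liver with 9 and kidney with 6. The highest spleen was above every liver and every kidney for 137 genes (91.3%, against 43.5% of the 12091 genes), and the lowest spleen was so for 27 (18%, against 20%). For 28 genes (18.7%, against 32.4%) the lowest spleen was below every liver and every kidney.

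For 33 genes (22%, against 0.835% of the 12091 genes) every liver and kidney was under an N of 50, so that the 50 added in V held their spread in those organs small. With 10 added in its place, 69 of the 150 genes passed the thresholds. A spread of 3 or less in liver and kidney thus depended on the 50 added for many of them.

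The difference between liver and kidney was not part of the rule. The quasi-likelihood test called 69 of the 147 genes (63% of all genes tested were called), 36 higher in liver and 33 higher in kidney (32.1% and 30.9% of all genes tested), with a median log2 fold change of 0.27. The sign of this median was not stable: it was -0.13 without the liver of F6849, -0.10 with the animal as a block and 0.05 with robust observation weights. The fit of 16 libraries held the spleens, whose spread chose the genes. With the libraries of liver and kidney only, the filter left 117 of the genes. Of these, 80 were called, 38 higher in liver and 42 higher in kidney. Of all 19519 genes tested in that fit, 12597 were called. The share of the 147 genes called, under 63%, is therefore not read as a deficit. With library totals alone in place of TMM factors, the fit of 16 libraries called 77 of the 147, 13 higher in liver and 64 higher in kidney. Of all 20764 genes tested it called 17741, 1615 higher in liver and 16126 higher in kidney. That scaling moved the median of all genes tested by -1.55 on the log2 scale between liver and kidney, and by 1.54 between spleen and liver.

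Monax4B024451 was the gene furthest to the side of liver, where its N was 290970 ± 66168 (SD, n = 6), against 8.22 ± 4.95 (SD, n = 5) for the kidneys. The fitted difference was 15.09 on the log2 scale, with a standard error of 0.93 (adjusted p = 1.75e-09 in the quasi-likelihood test of edgeR, after Benjamini and Hochberg). In spleen its N was 1203 in F6849, 1876 in F9150, 130 in M4046, 287 in M4075 and 977 in M4091, so that every spleen lay above every kidney and far below every liver. Monax4B006640 had an N of 86859 ± 21107 (SD, n = 6) in liver, against 909 ± 176 (SD, n = 5) in kidney, with a log2 fold change of 6.64 (standard error 0.66, adjusted p = 3.48e-07, edgeR). Its N in spleen was 5334 in F6849, 1491 in F9150, 1828 in M4046, 639 in M4075 and 298 in M4091.

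On the side of kidney, Monax4B018078 had 9482 ± 1863 (SD, n = 5) there, against 29.6 ± 22.8 (SD, n = 6) in liver, on the scale of N, with a log2 fold change of -8.31 (standard error 0.68, adjusted p = 4.02e-08, edgeR). Its N in spleen was 195 in F6849, 642 in F9150, 1078 in M4046, 1848 in M4075 and 1894 in M4091. Monax4B022825, at 3024 ± 1084 (SD, n = 5) in kidney against 15.4 ± 22.8 (SD, n = 6) in liver, had a log2 fold change of -7.66 (standard error 1.23, adjusted p = 5.27e-05, edgeR). In both kidney genes the males held more than the females in spleen, and in both liver genes F6849 held more than each male.

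Since genes of another organ were among the 150, the genes that mark each organ in these libraries were summed in the spleens. A gene was put on an organ's list where its N was at least 500 there and at least 8 times the highest N plus 10 in every library of the other organs, spleen left out. The liver list held 598 genes, 2 of them among the 150, Monax4B006640 and Monax4B024451. Its summed N was 854166 in the spleen of F6849, 670492 in F9150, 803584 in M4046, 803660 in M4075 and 787224 in M4091. The kidney list held 267 genes, 2 of them among the 150, with a summed N of 142214 in the spleen of F6849, 110890 in F9150, 79288 in M4046, 100980 in M4075 and 75755 in M4091.

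The heart list held 299 genes, 5 of them among the 150, with Monax4B000384 and Monax4B016757 among these 5. Its summed N was 190979 in the spleen of F6849, 186215 in F9150, 147488 in M4046, 158118 in M4075 and 123621 in M4091. The lung list held 181 genes, 4 of them among the 150, with a summed N of 56852 in F6849, 41148 in F9150, 51268 in M4046, 42557 in M4075 and 37342 in M4091. The pancreas list held 153 genes, 2 of them among the 150, and was lowest in F6849, at 93617 against 114190 to 140222 in the other spleens. The thymus list held 20 genes and none of the 150, and its summed N was 17278 in F6849 and 18554 to 20407 in the others. The liver, kidney, heart and lung lists were thus highest in the spleen of F6849, but these sums include genes of the 150, chosen for their spread in spleen. On the heart list Monax4B000384 alone held 10182 in F6849 and 426 in F9150, a wider gap than that between the heart sums of these spleens. The place of F6849 above F9150 on the heart list therefore rests on that gene. On the liver list the genes of the 150 held only 5334 and 1203 in F6849. That is less than the gap between 854166 there and 803660 in M4075, the next spleen, so F6849 stays highest without them. The part of the lists in the values of the 150 was not tested.

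Over the 20 libraries the 150 genes form 11175 pairs, and the median correlation of log2(N + 10) between them was 0.34 (Pearson's r, across libraries that share animals and organs). The correlation was at least 0.98 for 9 pairs, which were looked up after their values were seen. The most alike were Monax4B018252 and Monax4B017046 (r = 0.997), with N of 914 and 711 in the spleen of F6849, 467 and 420 in F9150, 27.2 and 22.4 in M4046, 33.6 and 26.5 in M4075 and 13.4 and 10.5 in M4091. Monax4B047319 and Monax4B008871 (r = 0.995) were also alike in level, with 951 and 885 in F6849, 1682 and 1565 in F9150, 309 and 286 in M4046, 709 and 682 in M4075 and 88.9 and 120 in M4091. Pairs this close in every library may share reads, since how the counting treated reads that map to near-identical copies is not given in the sources used here. Only 6 pairs of the 150 genes had identifiers within 5 of each other.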

How the data were processed

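The authors mapped the reads with gem-tools rna-mapper 1.6.1 and quantified them with gemtools 1.7.1 on the Monax4B annotation; the deposited values are read counts per gene and were not normalized. Even numbers make up 85.1% to 86.5% of the counts above 0, as when both reads of a fragment are counted. Counting error is therefore larger than the counts alone give.

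The 150 genes, the lists and the tests were chosen with earlier results of these data known. Size factors were the median ratio to the geometric mean over 16970 genes above 0 in all 20 libraries. Tissues and sexes were compared in R 4.3.3 with edgeR 4.0.16, which loads limma 3.58.1, and with DESeq2 1.42.0 as an alternative. The settings of edgeR were filterByExpr, TMM factors and a robust quasi-likelihood test. The false discovery rate was 0.05 by Benjamini-Hochberg over all genes. Spleens alone entered the comparison of the sexes. On simulated data, 70.5%, 70.5% and 71% of 200 genes changed 4-fold were recovered for spleen and liver, spleen and kidney, and liver and kidney, and 59% for the sexes in spleen. Of the calls, 6%, 3.42%, 5.96% and 9.23% were of unchanged genes, over 5% in all but the second. The simulation gave every gene but these 200 the same mean in all groups and set no library apart. In the data 62.5% to 74% of the genes tested were called between tissues, and the spleen of F6849 stood apart. The simulated rates may therefore not hold for the fits above. Python 3.11.15 with matplotlib 3.10.9 drew the figures.

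Animals are replicates of a tissue, and libraries of an animal come from the same individual. The pairing was checked on deviations from the tissue means: over 15 pairs of libraries from 1 animal, r was 0.123 to 0.314, always over 0.1. Genes were named by a rule: for each spleen at most 2 genes high and at most 2 low there alone with the largest V, at most 2 per direction with the largest fold change between the sexes (groups without overlap) or between liver and kidney (past the threshold), and those beside the thresholds. Other identifiers were chosen after their values were seen.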

Additional observations from a re-analysis of the deposited data

Results flagged for a closer look

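In 15 of 65 sets of spleens, livers or kidneys, the highest library stood apart, its gap to the next being large beside the range of the set. The limit for this gap is meant to flag about 1 in 20 sets by chance. That rate was not checked on N, which is uneven and often low in liver, so 15 of 65 is not read as an excess. The rule that chose the genes favours such gaps in spleen, and so does the naming of genes high in 1 spleen alone. The spleen of F6849 had a total count of 123267969, where the other spleens had 59487004 to 69512327, and the median N of the 150 genes there was 1260, against 140 to 434.

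In spleen, the gene in question was high in 1 animal. Monax4B015587 was at 18570 and Monax4B000384 at 10180 in F6849. Monax4B034886 was at 739.8 and Monax4B008382 at 865.8 in F9150. Monax4B016757 was at 2455 in M4046, Monax4B010797 at 541.7 in M4075 and Monax4B018508 at 624.9 in M4091.

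In liver, which did not choose the animal, Monax4B015587 was at 72.06 in F6849 against at most 5.03 in the other livers. Monax4B016757 was at 30.17 in M4046 against at most 3.62, and Monax4B010797 was at 60.35 in M4075 against at most 8.59. For these 3 genes the liver that stood apart was of the animal whose spleen did. For the others the level was near 0: Monax4B020072 was at 7.315 in the liver of M4075, Monax4B018508 at 4.804 in that of F6849 and Monax4B038910 at 2.402 in that of F6849.

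Among the 17 genes named by rule, the sexes were in opposite order in spleen and liver for 2, with every male above every female in spleen and every female above every male in liver. These were Monax4B012726, with a median N of 16.6 in liver, and Monax4B022825, with one of 2.402. Over all 150 genes this order was found for 3 of the 22 genes with males on top in spleen, and the reverse, with every male on top in liver, for 3 of the 93 with females on top. Of the 12091 genes, whatever their order in spleen, 10.9% had every female on top in liver and 13.5% every male. No excess of opposite orders is read from these counts. The difference between the tissues was not tested.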

How the results depend on the processing

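The number of genes passing the thresholds, 373, was 243 with 200 added, 583 with V above 4, 144 with V above 8 and 170 with V at most 2 in liver and kidney. It was 118 to 419 with 1 library left out in turn, with 118 without the spleen of F6849 and 185 without that of M4091. With the first 150 genes chosen anew, F6849 was the highest spleen of 112 under TMM factors, 99 with library totals, 109 with 10 added, 106 with 200 added and 110 with its counts thinned, where 148, 123, 69, 82 and 147 of them were among the 150. The number called between female and male spleens, 0, was 111 with DESeq2, 2 with library totals, 12 without the filter, 132 with robust observation weights and 71 in a fit of tissue by sex over 16 libraries. Of all genes tested, these settings called 2470 of 19735, 2 of 19735, 118 of 24780, 2170 of 19735 and 818 of 22179. It was 0 to 65 with 1 spleen left out in turn, 65 without F9150, where the lone female was assumed to vary like the males. With 1 library left out, the calls between tissues were 99 to 130 for spleen and liver, 102 to 116 for spleen and kidney, and 58 to 66 for liver and kidney. The lane as a block, chosen after seeing the data, gave 98, 79 and 50. Of all 20764 genes tested it gave 14378, 9992 and 10090.

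The animal as a replicate block gave 108, 100 and 69 called genes for spleen and liver, spleen and kidney, and liver and kidney, against 121, 110 and 69. Of all 20764 genes tested it gave 15174, 13240 and 13071. With this block Monax4B016757 had a log2 fold change of -3.89 between spleen and kidney against 0.38 without it, with robust weights -4.70, and -5.18 to 0.70 with 1 library left out, the lowest without the spleen of M4046. That of Monax4B034886, 3.79, was -1.02 with robust weights and -1.71 to 4.16 with 1 library left out, the lowest without the spleen of F9150. Both are high in 1 spleen alone. The cause of the other changes was not tested. Few counts in the lowest spleen limit the precision of V.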
